A study of Mus musculus with 12 samples.

Results

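The genes described here are the colony-stimulating factor receptors of mouse macrophages and the ligand M-CSF: Csf1r, Csf1, Csf2ra, Csf2rb, Csf2rb2, Csf3r and Il3ra. They were taken by symbol, and all 7 were found among the 56748 Ensembl genes of the deposited table. All 7 also passed the filter on low counts, as did 15033 genes in all. The cells were bone marrow-derived macrophages (BMDM) of C57BL/6J mice, grown with M-CSF (20 ng/mL) and polarized to M2-like cells by 48 hours of IL4 (10 ng/mL). They were then cultured for 72 hours in 1 of 4 conditions, with 3 libraries each. Untreated control cells received medium alone. One group received supernatant of YUMM5.2 eGFP cells, a mouse melanoma line that carries eGFP only (eGFP sn). Another group received supernatant of YUMM5.2 Ifnb1eGFP cells, which secrete IFNβ when doxycycline (Dox) is given, diluted to 1500 pg/mL IFNβ (Ifnb1eGFP sn). The last group received recombinant IFNβ at the same concentration (rIFNβ). Both melanoma lines had been kept with Dox at 1 µg/mL for 72 hours, and eGFP sn was diluted at the same ratio as Ifnb1eGFP sn. The labels give no measure of Dox or M-CSF left in the supernatants, and they do not say how many mice the 3 libraries of a condition came from.

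M-CSF, the product of Csf1, binds the receptor tyrosine kinase encoded by Csf1r and keeps macrophages alive. GM-CSF and IL3 each bind an alpha chain of their own, encoded by Csf2ra and Il3ra, which pairs with the common beta chain encoded by Csf2rb and signals through JAK2 and STAT5. Mice carry a further beta chain gene, Csf2rb2, whose product serves IL3 alone, and the G-CSF receptor encoded by Csf3r is best known from neutrophils.

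The table held expected counts, the reads that RSEM assigns to each gene, dividing those that match several genes between them. Library totals ran from 31526034 to 45348457 counts. Levels are in CPM, a gene's count relative to the library total after scaling by edgeR's TMM factors, and fold changes come from edgeR's quasi-likelihood test over all 12 libraries, with Benjamini-Hochberg adjustment over the 15033 genes. A gene was called where its adjusted p did not exceed 0.05. The SE and the approximate 95% interval of a log2 fold change were derived from the same test. Since nothing says that the libraries came from separate cultures or animals, p-values measure only the spread between these libraries, which may be technical. All 10 of 10 macrophage markers passed the filter. Their summed level was 23330 to 26780 CPM without and 13360 to 15030 CPM with IFNβ, without overlap. Most of that sum was Lyz2 (8807 to 12830 CPM without, 3441 to 4322 CPM with IFNβ) and Cd36 (7952 to 9254 CPM without, 3569 to 4335 CPM with IFNβ). The median log2 fold change of the 10 was 0.07 in Ifnb1eGFP sn against eGFP sn and 0.04 in rIFNβ against control. In Ifnb1eGFP sn against eGFP sn 5 of them rose: Fcgr1 by 3.85, Aif1 by 2.94, Cd68 by 0.35, Mertk by 0.32 and Adgre1 by 0.21. Another 4 fell: Itgam fell by 1.99, Lyz2 fell by 1.59, Cd36 fell by 1.06 and Cd14 fell by 0.78. What part this has in the receptor levels was not tested. Of the 10 M2-like markers Mrc1 stood at 609 to 839 CPM, while Arg1 was at 0.208 to 0.877 CPM, near absence. Neither was called in a comparison with IFNβ. Of the 8 that passed the filter, 2 rose and 2 fell in each of these comparisons, 50% of them, where 55.1% and 55.3% of all genes were called. Chil3 rose by 0.77 in Ifnb1eGFP sn against eGFP sn and by 0.67 in rIFNβ against control, and Clec10a by 0.42 and 0.67. Cd163 fell by 1.54 and 1.52, and Clec7a by 0.68 and 0.58. Summed levels of 12 interferon-stimulated genes were 13110 to 14570 CPM in the 6 IFNβ-exposed libraries and 231.5 to 356 CPM in 5 of the 6 others. The library of eGFP sn replicate 2 stood apart from those at 1217 CPM. Without it, 5 of the 7 receptor and ligand genes were again called in Ifnb1eGFP sn against eGFP sn, 1 higher and 4 lower.

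IFNβ exposure went with lower Csf1, Csf2ra, Csf2rb and Csf2rb2 and with higher Csf3r from either source. Called in Ifnb1eGFP sn against eGFP sn were 5 of 7 genes, 1 higher and 4 lower, where 55.1% of all genes tested were called (30.1% higher, 25% lower). The same numbers were called in rIFNβ against untreated control, where 55.3% of all genes were called (30.7% higher, 24.6% lower). In neither comparison did any of the 7 pass the stricter thresholds of the study's methods (a log2 fold change of 2 or more in size with an adjusted p up to 0.01), which 5.39% and 5.77% of genes passed. The median log2 fold change of the 7 genes was -0.59 for Ifnb1eGFP sn against eGFP sn and -0.24 for rIFNβ against control, and that of all genes tested 0.03 and 0.04. In these bulk libraries fewer cells of a type and less RNA per cell cannot be told apart.

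**Figure D1:**
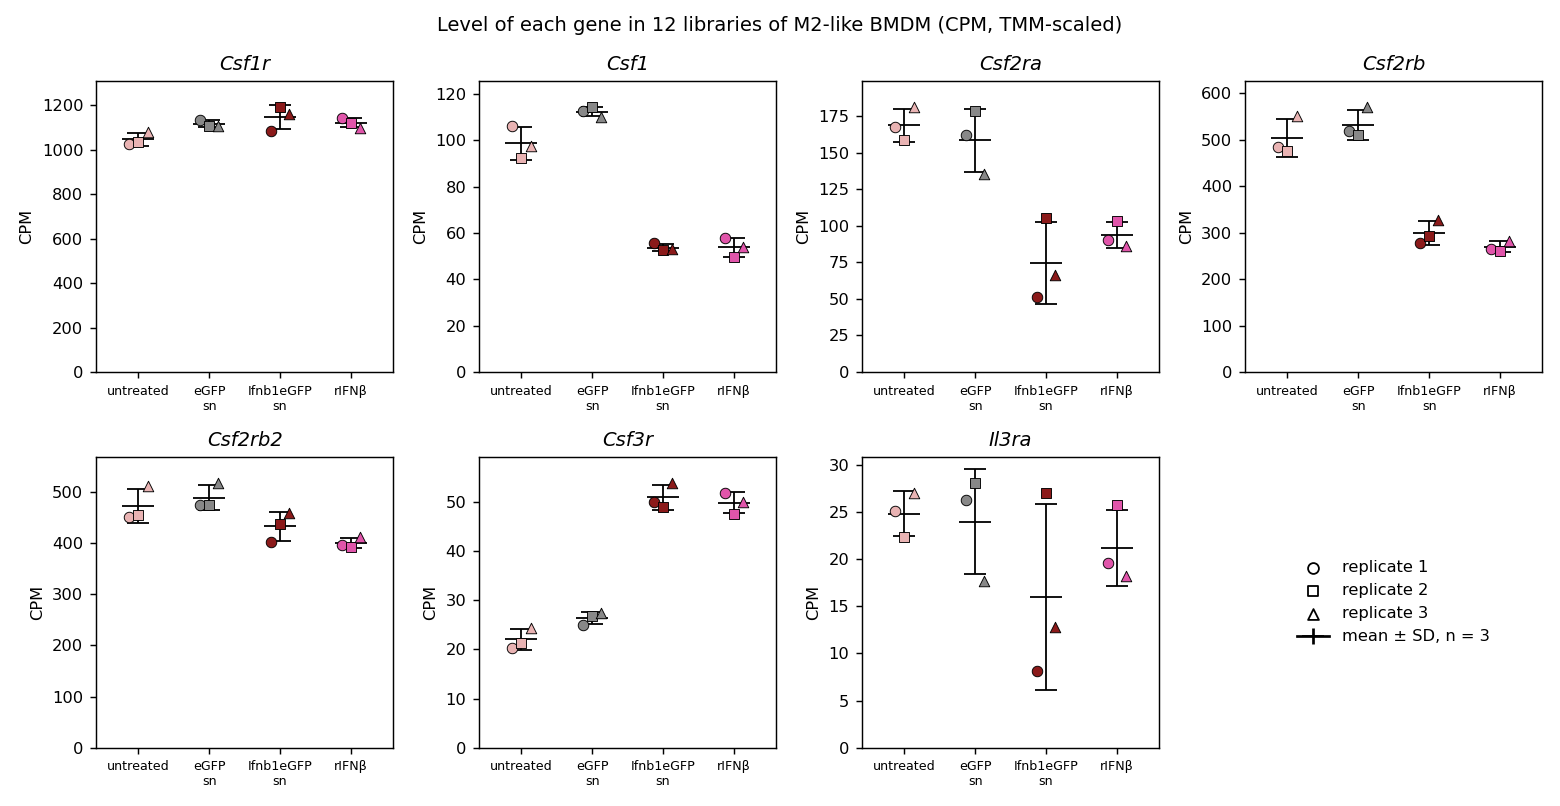
Level of each gene in CPM (vertical axis, from 0) in the 12 libraries by condition, with marker shapes for replicate numbers and bars for the mean and SD of 3 libraries. Csf1, Csf2ra and Csf2rb were lower and Csf3r higher in all 6 IFNβ-exposed libraries than in the 6 others, Csf1r kept a narrow range, and Il3ra spread widely within Ifnb1eGFP sn. Of all genes, 59% had groups without overlap in Ifnb1eGFP sn against eGFP sn and 66.1% in rIFNβ against control.

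Csf1 (ENSMUSG00000014599, GRCm39 chr3:107648364-107667806, minus strand) encodes M-CSF, the ligand of Csf1r. It measured 106, 92.3 and 97.4 CPM in untreated control and 112.5, 114 and 110.2 CPM with eGFP sn. It measured 55.5, 52.5 and 52.95 CPM with Ifnb1eGFP sn and 57.8, 49.75 and 53.8 CPM with rIFNβ. All 6 exposed libraries lay below all 6 unexposed ones, and the group means were 98.6 ± 6.98, 112 ± 1.93, 53.6 ± 1.61 and 53.8 ± 4.01 CPM (SD, n = 3) in that order. Groups failed to overlap for 59% of all genes in Ifnb1eGFP sn against eGFP sn and for 66.1% in rIFNβ against control. The share of all genes that separate 6 against 6 libraries, as Csf1, Csf2ra, Csf2rb and Csf3r did, was not counted. Csf1 fell by 1.07 on the log2 scale in Ifnb1eGFP sn against eGFP sn (SE 0.0624, interval -1.21 to -0.92, edgeR adjusted p = 7.42e-08). With rIFNβ it fell by 0.88 (interval -1.02 to -0.73, edgeR adjusted p = 3.27e-07). Exposed cells thus held 47.8% of the mean level of eGFP sn and 54.5% of that of untreated control.

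Csf1r (ENSMUSG00000024621, GRCm39 chr18:61229714-61266535, plus strand) encodes the M-CSF receptor, on which macrophages depend for survival. It stood at 1023, 1036 and 1077 CPM in untreated control and at 1135, 1106 and 1107 CPM with eGFP sn. With Ifnb1eGFP sn it stood at 1084, 1189 and 1161 CPM, and with rIFNβ at 1140, 1121 and 1099 CPM. The values with Ifnb1eGFP sn overlapped those with eGFP sn, whereas all 3 rIFNβ libraries and all 3 eGFP sn libraries lay above all 3 untreated ones. Against untreated control, groups failed to overlap in either direction for 66.1% of all genes with rIFNβ and for 15.5% with eGFP sn. The log2 fold change was 0.04 in Ifnb1eGFP sn against eGFP sn (interval -0.06 to 0.14, edgeR adjusted p = 0.499) and 0.10 in rIFNβ against control (interval 0.00 to 0.20, edgeR adjusted p = 0.0688). Neither was called, although the latter was with library totals (0.11, edgeR adjusted p = 0.0414) and without Ifnb1eGFP sn replicate 2 (0.10, edgeR adjusted p = 0.0468). The intervals bound any difference to at most 0.20 on the log2 scale. When each library's trend with GC content was removed, an alternative chosen after seeing the data, both values were called. They were 0.12 (interval 0.05 to 0.20, edgeR adjusted p = 0.00648) and 0.16 (interval 0.08 to 0.23, edgeR adjusted p = 0.00135).

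Csf2ra (ENSMUSG00000059326, GRCm39 chr19:61212395-61216892, minus strand) encodes the alpha chain that binds GM-CSF. It measured 167, 158.5 and 181 CPM in untreated control and 162, 178 and 135 CPM with eGFP sn. It measured 51.2, 105.6 and 66.4 CPM with Ifnb1eGFP sn and 90.6, 103 and 86.5 CPM with rIFNβ. The highest exposed library, Ifnb1eGFP sn replicate 2, still lay below the lowest unexposed one, eGFP sn replicate 3. Csf2ra fell by 1.09 in Ifnb1eGFP sn against eGFP sn (SE 0.21, interval -1.58 to -0.61, edgeR adjusted p = 0.000967). With rIFNβ it fell by 0.85 (SE 0.209, interval -1.33 to -0.37, edgeR adjusted p = 0.00453).

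Il3ra (ENSMUSG00000068758, GRCm39 chr14:8113752-8123508, minus strand) encodes the alpha chain that binds IL3. It measured 25.1, 22.3 and 27.1 CPM in untreated control and 26.2, 28.05 and 17.6 CPM with eGFP sn. With Ifnb1eGFP sn it measured 8.14, 26.99 and 12.8 CPM, and with rIFNβ 19.6, 25.75 and 18.2 CPM. The 3 libraries of Ifnb1eGFP sn thus ran from the lowest value of all to one among the highest, and the conditions overlapped. The log2 fold changes of -0.59 (SE 0.343, interval -1.38 to 0.21, edgeR adjusted p = 0.171) and -0.23 (SE 0.341, interval -1.01 to 0.56, edgeR adjusted p = 0.602) were not called. Without Ifnb1eGFP sn replicate 2 the first was -1.19 and was called (edgeR adjusted p = 0.00143).

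Csf2ra and Il3ra were the members with the highest GC content, 58.1% and 61.6% in the longest transcript of each gene. These values lay above 93.5% and 98.8% of the genes tested, while the other 5 members lay between 53.2% and 54.4%. Within conditions, the library deviations of Csf2ra and Il3ra went together with those of the 1497 genes of at least 56.9% GC. In Ifnb1eGFP sn replicate 1 these genes deviated from their condition mean by a median of -0.294 on the log2 scale, Csf2ra by -0.473 and Il3ra by -0.79. In Ifnb1eGFP sn replicate 2 the deviations were 0.312, 0.571 and 0.932, so that both genes stood high in the library in which GC-rich genes stood high. Across the 12 libraries, as a description, Pearson's r with the median of the GC-rich genes was 0.993 for either gene, 0.767 for Csf1r and between -0.269 and 0.185 for the other 4, and the points share their libraries and their scaling. With the GC trend removed, Csf2ra fell by 0.82 (edgeR adjusted p = 8.84e-05) in Ifnb1eGFP sn against eGFP sn and by 0.68 (edgeR adjusted p = 0.000348) in rIFNβ against control. Il3ra then gave -0.21 (edgeR adjusted p = 0.369) and 0.02 (edgeR adjusted p = 0.928), the latter with the opposite sign.

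**Figure D2:**
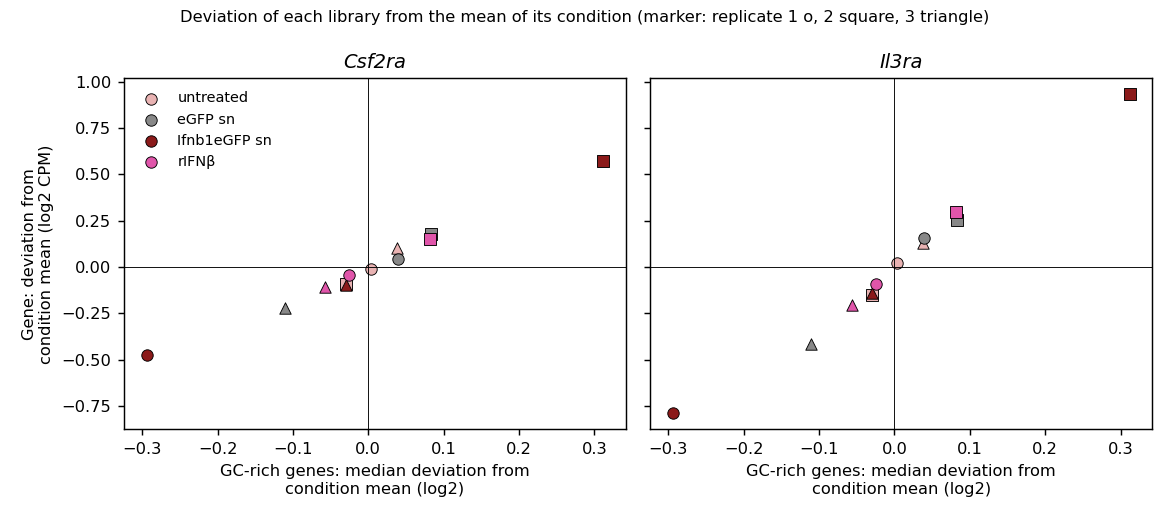
Deviation of Csf2ra (left) and Il3ra (right) from the mean of their condition in log2 CPM (vertical axis) against the median deviation of 1497 GC-rich genes (horizontal axis, log2) in the 12 libraries, with colours for conditions and marker shapes for replicate numbers. Ifnb1eGFP sn replicates 1 and 2 form the lower left and upper right ends, at -0.294 and 0.312 on the horizontal axis.

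Csf2rb and Csf2rb2 are neighbours on chromosome 15 and transcribed away from each other, with start sites 20031 bases apart. Their coding sequences (transcripts Csf2rb-206 and Csf2rb2-201, GENCODE M39) agree at 95.2% of 2631 aligned bases, with 66 further columns in gaps. Reads can therefore fall on both, and the expected counts of both genes were not whole in 12 of 12 libraries. The 120 coding bases with the most differences (22) are shown because they are where reads separate the genes best, with differing bases in capitals, at coding bases 309 to 428 of Csf2rb and 312 to 431 of Csf2rb2.
Csf2rb: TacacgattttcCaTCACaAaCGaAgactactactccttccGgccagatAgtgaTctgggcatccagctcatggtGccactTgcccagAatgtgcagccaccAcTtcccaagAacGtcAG
Csf2rb2: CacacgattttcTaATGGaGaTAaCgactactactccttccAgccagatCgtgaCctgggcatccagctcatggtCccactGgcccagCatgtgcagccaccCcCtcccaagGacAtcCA
The longest stretch without a difference is shown for the opposite reason, since a read that lies inside it matches both genes. It spans 242 bases, coding bases 2083 to 2324 of either gene.
Both genes: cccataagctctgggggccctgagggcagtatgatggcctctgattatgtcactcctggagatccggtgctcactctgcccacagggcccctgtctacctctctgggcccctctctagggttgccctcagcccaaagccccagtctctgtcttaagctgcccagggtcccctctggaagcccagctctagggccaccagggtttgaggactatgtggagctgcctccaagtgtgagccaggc
Of all windows of 75 bases in the transcript of Csf2rb, 10.7% also occur in that of Csf2rb2, and 11.1% the other way round. The read length of the libraries is not given in the sources used here.

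Csf2rb (ENSMUSG00000071713, GRCm39 chr15:78209952-78238047, plus strand), the common beta chain, measured 485, 475 and 551 CPM in untreated control and 519, 509 and 569.6 CPM with eGFP sn. It measured 278, 293 and 327 CPM with Ifnb1eGFP sn and 266, 259.6 and 283 CPM with rIFNβ. Every exposed library lay well below every unexposed one. Csf2rb fell by 0.83 in Ifnb1eGFP sn against eGFP sn (SE 0.0762, interval -1.01 to -0.66, edgeR adjusted p = 2.9e-06) and by 0.90 in rIFNβ against control (SE 0.0764, interval -1.08 to -0.73, edgeR adjusted p = 1.36e-06). With its GC trend removed it fell by 0.71 and 0.83.

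Csf2rb2 (ENSMUSG00000071714, GRCm39 chr15:78166707-78189921, minus strand), the IL3-specific beta chain, measured 451, 455 and 511 CPM in untreated control and 475, 474 and 517 CPM with eGFP sn. It measured 402, 436 and 459 CPM with Ifnb1eGFP sn and 395.5, 392 and 411 CPM with rIFNβ. Groups did not overlap within either comparison, as was so for 59% and 66.1% of all genes. The distance between them was small beside that of Csf2rb. Csf2rb2 fell by 0.18 (SE 0.0642, interval -0.32 to -0.03, edgeR adjusted p = 0.0371) in Ifnb1eGFP sn against eGFP sn and by 0.24 (SE 0.0643, interval -0.39 to -0.09, edgeR adjusted p = 0.00756) in rIFNβ against control. The first call was lost with the GC trend removed (-0.09, edgeR adjusted p = 0.214), with library totals in place of TMM (-0.16, edgeR adjusted p = 0.079), with the fit limited to these 6 libraries (-0.18, edgeR adjusted p = 0.0809) and without eGFP sn replicate 3 (-0.13, edgeR adjusted p = 0.133). It was also lost without Ifnb1eGFP sn replicate 1 (-0.16, edgeR adjusted p = 0.077), Ifnb1eGFP sn replicate 2 (-0.18, edgeR adjusted p = 0.0542) or rIFNβ replicate 1 (-0.18, edgeR adjusted p = 0.0503).

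The unequal fall shifted the balance of the beta chains. Csf2rb2 held 48.2%, 48.9% and 48.1% of the counts of both genes in untreated control and 47.8%, 48.2% and 47.6% with eGFP sn. It held 59.1%, 59.8% and 58.4% with Ifnb1eGFP sn and 59.8%, 60.2% and 59.25% with rIFNβ. Exposed and unexposed libraries did not overlap, and the means of 59.4% and 48.1% differed by 11.3 percentage points. A two-sided exact permutation test within supernatant and medium cultures gave p = 0.005, the smallest that its 400 relabellings can give, for a quantity chosen after the values were seen. Since the libraries did not overlap, the test could give no other value, and it adds nothing to that separation. The share rests on how RSEM divided shared reads, and what part that has in the result was not tested. The sum of both rows does not depend on that division. It fell by 0.48 in Ifnb1eGFP sn against eGFP sn (SE 0.069, edgeR adjusted p = 0.000109) and by 0.55 in rIFNβ against control (SE 0.069, edgeR adjusted p = 3.89e-05), from means of 1021 ± 57.0 and 976 ± 74.5 CPM to 732 ± 53.2 and 669 ± 21.9 CPM (SD, n = 3).

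**Figure D3:**
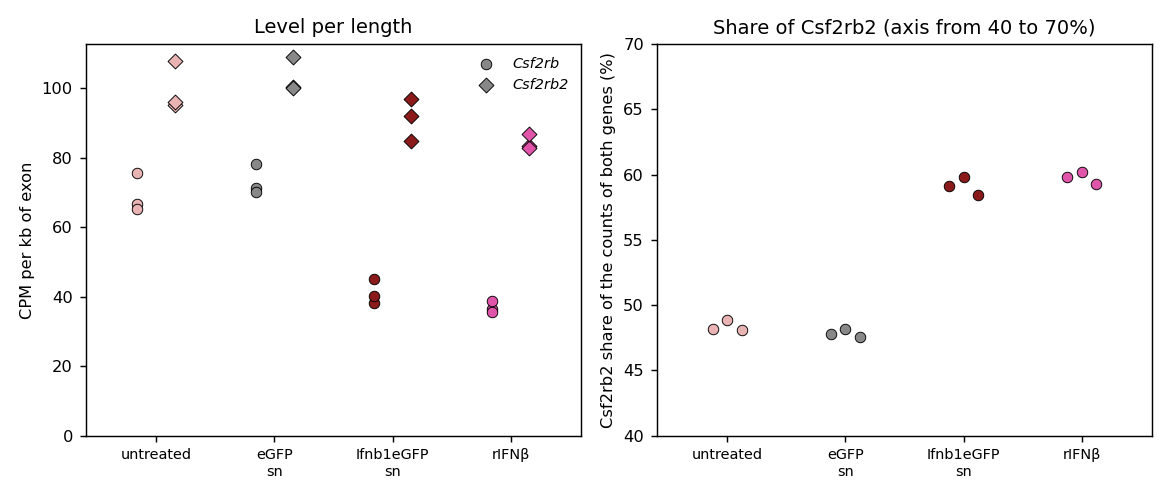
Left, level of Csf2rb (circles) and Csf2rb2 (diamonds) in CPM per kb of exon, from 0, in each library by condition. Right, share of Csf2rb2 in the counts of both genes in percent, on an axis from 40 to 70%, with all 6 IFNβ-exposed libraries between 58.4% and 60.2% and the 6 others between 47.6% and 48.9%.

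Csf3r (ENSMUSG00000028859, GRCm39 chr4:125918262-125938236, plus strand), the G-CSF receptor, was the member that rose. It measured 20.3, 21.4 and 24.4 CPM in untreated control and 25.0, 26.85 and 27.4 CPM with eGFP sn. It measured 50.06, 49.1 and 53.9 CPM with Ifnb1eGFP sn and 51.8, 47.6 and 50.1 CPM with rIFNβ. The lowest exposed library stood far above the highest unexposed one. Csf3r rose by 0.95 on the log2 scale in Ifnb1eGFP sn against eGFP sn (SE 0.0703, interval 0.79 to 1.11, edgeR adjusted p = 5.04e-07), 1.93 times the level. With rIFNβ it rose by 1.17 (SE 0.0713, interval 1.01 to 1.34, edgeR adjusted p = 8.79e-08), 2.26 times the level. Of 12 neutrophil markers 3 passed the filter. All 3 were called lower in both comparisons with IFNβ, where 25% and 24.6% of all genes were called lower. S100a8 fell by 3.35 and Mmp8 fell by 0.71 on the log2 scale in Ifnb1eGFP sn against eGFP sn, and Cxcr2 stood at 0.509 to 0.778 CPM without and 0.0253 to 0.0652 CPM with IFNβ. The summed level of the 12 was 13.7 to 21.75 CPM without and 4.68 to 11.5 CPM with IFNβ. The other 9 had at most 10 counts in any library, a number reached by Mpo, which was seen in exposed libraries only. Ly6g was seen in the 3 rIFNβ libraries alone, with at most 3 counts. What part neutrophils have in the level of Csf3r was not tested.

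Per kb of merged exon, Csf1r was the most abundant of the 7 with condition means of 142 to 155.5 CPM per kb. This scale sets genes side by side, but it depends on the annotated exon length, which need not be that of the transcripts made. Csf2rb2 followed with 84.3 to 103 CPM per kb, then Csf2rb with 37.0 to 73.2 and Csf2ra with 25.4 to 57.8 CPM per kb. Without IFNβ the order of the beta chains rests on that length, 7277 bases for Csf2rb and 4740 for Csf2rb2. In CPM Csf2rb was then the higher, with means of 504 against 472 in untreated control and 533 against 489 with eGFP sn. Csf1 stood at 9.13 to 19.1 CPM per kb. Il3ra stood at 5.06 to 7.87 CPM per kb and Csf3r at 4.32 to 10.0 CPM per kb. Without IFNβ Csf3r was the lowest of the 7, whereas with IFNβ Il3ra was the lowest and the mean of Csf3r lay above that of Csf1. Il3ra stood above Csf3r in 6 of 6 unexposed libraries and below it in 6 of 6 exposed ones, and in rIFNβ replicate 2 the values were 8.16 and 9.33 CPM per kb. Within conditions the neighbours Csf1 and Csf3r, at 9.13 ± 0.273 and 10.0 ± 0.496 with Ifnb1eGFP sn, lay close together, and with rIFNβ their values overlapped.

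**Figure D4:**
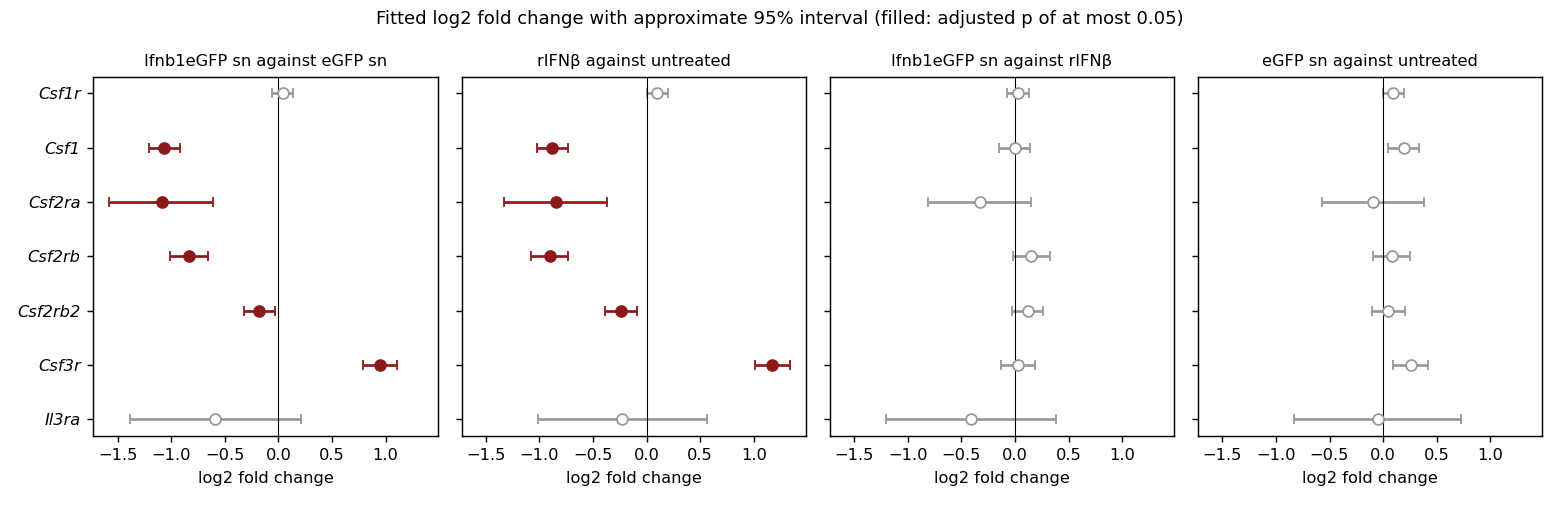
Fitted log2 fold change of each gene (points) with its approximate 95% interval (lines) in 4 comparisons on 1 common axis, filled where the adjusted p was at most 0.05. In both comparisons with IFNβ 4 called genes (Csf1, Csf2ra, Csf2rb and Csf2rb2) lay left of 0 and 1 (Csf3r) right of it, and in Ifnb1eGFP sn against rIFNβ and in eGFP sn against control no gene was called.

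Whether the source of IFNβ mattered was asked by setting Ifnb1eGFP sn against rIFNβ. These groups differ in melanoma supernatant as well, so source and supernatant cannot be told apart in this comparison. None of the 7 genes was called, where 0.16% of all genes were called (24 genes, with 1288 at an unadjusted p under 0.05). The values lay between -0.41 (Il3ra, interval -1.20 to 0.38) and 0.15 (Csf2rb, interval -0.02 to 0.33). For Csf1 (interval -0.15 to 0.14), Csf1r (-0.07 to 0.13) and Csf3r (-0.13 to 0.19) the intervals of the main fit stayed within 0.2 on the log2 scale. Those of Csf2ra (-0.81 to 0.15) and Il3ra were wide. With the GC trend removed, the intervals of Csf1 (-0.11 to 0.26) and Csf3r (-0.08 to 0.24) went beyond 0.2. Without Ifnb1eGFP sn replicate 2, the library in which GC-rich genes stood high, Csf2ra (-0.67, edgeR adjusted p = 0.0318) and Il3ra (-1.01, edgeR adjusted p = 0.0375) were called lower with Ifnb1eGFP sn. With all libraries and the GC trend removed, neither Csf2ra (-0.21, edgeR adjusted p = 0.735) nor Il3ra (-0.25, edgeR adjusted p = 0.791) was called.

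Whether melanoma supernatant without IFNβ acted on the genes was asked by setting eGFP sn against untreated control. Again none of the 7 was called, where 0.299% of all genes were called (45 genes, with 1203 at an unadjusted p under 0.05). The groups did not overlap for Csf3r (0.26, interval 0.09 to 0.42, edgeR adjusted p = 0.246), Csf1 (0.19, interval 0.05 to 0.33, edgeR adjusted p = 0.351) and Csf1r (0.09, edgeR adjusted p = 0.622), each higher with eGFP sn, as was so in either direction for 15.5% of all genes. The interaction, which compares the IFNβ effect in supernatant with that in medium, called 0 of 7 genes and 0% of all genes by edgeR, with 661 genes at an unadjusted p under 0.05. Csf3r (-0.23, interval -0.45 to 0.00, edgeR unadjusted p = 0.044, adjusted p = 0.926) and Csf1 (-0.19, interval -0.39 to 0.01, edgeR unadjusted p = 0.0523, adjusted p = 0.926) had the smallest p among the members. The comparisons with IFNβ have no library in common with each other, whereas this interaction, eGFP sn against control and Ifnb1eGFP sn against rIFNβ all reuse their libraries.

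The promoter of Csf1r was not looked up, and Csf2rb had no entry in the RefSeq promoters used (GRCm38.p6). Promoters of the other 5 members could be printed from these. Those of Csf3r, which rose, and Csf2rb2, which fell least of the genes called, are shown as the 250 bases before the start, and were searched on both strands for the interferon-stimulated response element core (GAAA repeated after 2 free bases), the STAT motif GAS (TTCNNNGAA) and the PU.1 core GAGGAA. Capitals mark matches.
Csf3r, chr4:126024409-126024658, plus strand: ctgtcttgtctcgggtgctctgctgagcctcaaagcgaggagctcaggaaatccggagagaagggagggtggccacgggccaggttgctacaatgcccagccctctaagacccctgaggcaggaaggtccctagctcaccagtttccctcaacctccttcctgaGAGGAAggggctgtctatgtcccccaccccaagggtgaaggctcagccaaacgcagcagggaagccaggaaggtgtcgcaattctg
Csf2rb2, chr15:78305722-78305971, minus strand: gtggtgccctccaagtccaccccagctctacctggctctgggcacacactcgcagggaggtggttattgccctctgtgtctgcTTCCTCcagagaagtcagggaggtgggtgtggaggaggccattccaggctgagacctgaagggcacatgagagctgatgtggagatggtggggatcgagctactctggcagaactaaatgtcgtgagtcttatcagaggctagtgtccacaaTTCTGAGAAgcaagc
The PU.1 core was found in Csf3r at position -86 from the start, in Csf2rb2 at -167 on the other strand and in Csf2ra at -14 and -8, and it occurs in 23.3% of 32851 promoters of this length. A GAS match stood in Csf2rb2 at -15 (7.02% of promoters hold one). No window of the 5 held the response element core, which 2.98% of promoters hold, and in those of Csf1 and Il3ra none of the 3 motifs was found.

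The genes of GM-CSF, G-CSF, IL3, IL5 and IL34 were nearly absent from these macrophages. Csf2, the gene of GM-CSF, had at most 1 count in a library and 4 counts over the 12 libraries, Csf3 (G-CSF) had 1 count in all and Il3 had 0. Il34, the alternative ligand of the M-CSF receptor, stood at 0.0506 to 0.191 CPM, and Il5, Il5ra and Flt3 had at most 2 counts in any library. Of the 10 genes in this list 3 passed the filter. Kitl, the ligand of KIT, rose by 0.73 (edgeR adjusted p = 6.93e-07) and 0.71 (edgeR adjusted p = 8e-07) in Ifnb1eGFP sn against eGFP sn and in rIFNβ against control, from 39.1 to 44.75 CPM without to 64.7 to 69.9 CPM with IFNβ. Flt3l, the ligand of FLT3, rose by 0.66 (edgeR adjusted p = 0.00475) and 1.52 (edgeR adjusted p = 1.47e-05), while its receptor gene Flt3 was at those few counts. Kit, with -0.47 and -0.45, was not called.

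Among genes that act downstream of the receptors, some rose and others fell in each list. Of 30 genes of CSF1R signalling 13 rose and 10 fell in Ifnb1eGFP sn against eGFP sn, and 12 rose and 12 fell in rIFNβ against control, 76.7% and 80% of the list where 55.1% and 55.3% of all genes were called, with list medians of 0.03 and 0.02 beside 0.03 and 0.04 over all genes. The values that follow are log2 fold changes in that order. The Src family kinase Lyn rose by 1.94 and 1.94, the adaptor Lpxn by 1.20 and 1.15, the phosphatase Ptpn6 by 0.78 and 0.81 and the kinase Syk by 0.46 and 0.36. The kinase Fyn fell by 0.76 and 0.89, the adaptor Shc1 by 0.56 and 0.51, the MAP kinase Mapk3 by 0.71 and 0.66 and the docking protein Dok2 by 1.21 and 1.05. Of these 8 genes Lyn, a kinase that several of the receptors share, changed most.

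Of 18 genes of beta common and G-CSF receptor signalling 8 rose and 4 fell with Ifnb1eGFP sn, and 8 rose and 7 fell with rIFNβ (medians 0.19 and 0.18). That is 66.7% and 83.3% of the list, beside 55.1% and 55.3% of all genes. The receptor-associated kinase Jak2 rose by 1.27 and 1.26 and Stat3 by 0.67 and 0.72. The STAT inhibitor Pias1 rose by 0.39 and 0.38 and the JAK inhibitor Socs1 by 2.04 and 2.59. The PI3 kinase subunits Pik3cb and Pik3cg fell by 1.24 and 1.49 and by 0.31 and 0.37. The adaptor Sh2b3 fell by 0.41 and 0.36, and Socs2, an inhibitor that STAT5 induces, by 1.17 and 1.44. Socs1 and Socs2 were low, at 0.226 to 2.31 CPM and 0.562 to 3.44 CPM. Stat5b rose by 0.37 and 0.45, whereas Stat5a, at -0.18 and 0.00, was not called. Among these genes inhibitors of the pathway are found on the rising and on the falling side.

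Of 12 genes listed as STAT5 targets 6 rose and 3 fell in either comparison (medians 0.41 and 0.24), 75% of the list beside 55.1% and 55.3% of all genes. The cyclin Ccnd2 rose by 1.90 and 1.92, the survival gene Mcl1 by 0.66 and 0.68, the repressor Bcl6 by 0.46 and 0.50 and the stress gene Gadd45g by 0.97 and 1.35. Myc fell by 1.44 and 1.34 and the survival gene Bcl2l1 by 0.42 and 0.34, beside Socs2. Cish, another inhibitor that STAT5 induces, was low, at 0.341 to 0.72 CPM. It rose by 0.70 with Ifnb1eGFP sn (edgeR adjusted p = 0.0153) and stood at -0.02 with rIFNβ (edgeR adjusted p = 0.955). Its mean was lowest with eGFP sn, at 0.416 CPM, beside 0.602 in untreated control, 0.675 with Ifnb1eGFP sn and 0.592 with rIFNβ. The interaction was not called for any gene.

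Of 17 regulators of Csf1r transcription 4 rose and 5 fell with Ifnb1eGFP sn, and 4 rose and 6 fell with rIFNβ (medians 0.04 and 0.03). That is 52.9% and 58.8% of the list, near the 55.1% and 55.3% of all genes. The ETS factor Fli1 rose by 0.70 and 0.75, Maf by 0.48 and 0.60 and Tfec by 0.48 and 0.34. Egr2, a factor of IL4-treated macrophages, fell by 3.16 and 3.37, from 114.6 to 147 CPM without to 11.98 to 15.9 CPM with IFNβ. Mitf fell by 0.68 and 0.89, Klf4 by 1.15 and 1.25 and Cebpa by 0.64 and 0.63, while Spi1, which encodes PU.1, gave 0.09 and 0.26 and was not called (edgeR adjusted p = 0.629 and 0.158). In Ifnb1eGFP sn against rIFNβ and in eGFP sn against control 0 genes of the 4 lists were called. The lists were written with earlier results of these data known.

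**Figure D5:**
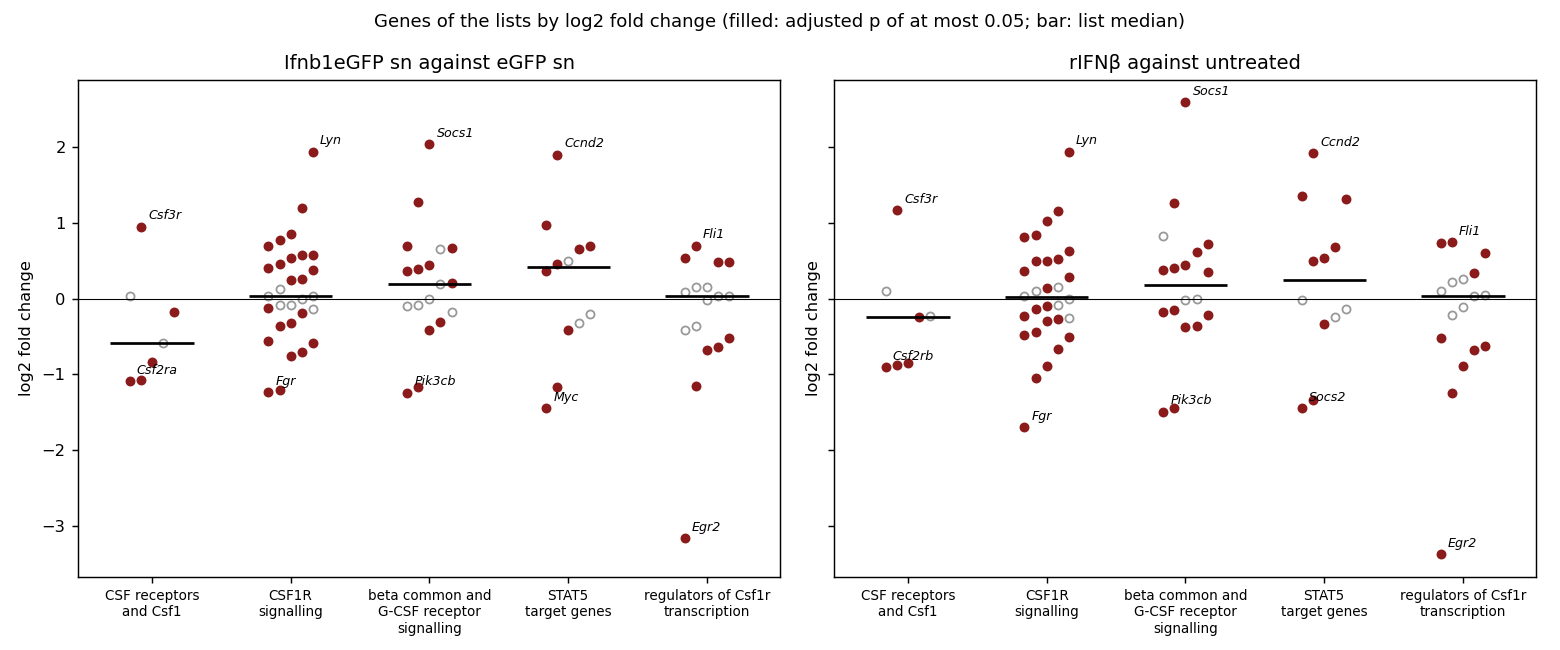
Log2 fold change (vertical axis) of the 7 genes and of 4 pathway lists (columns) in Ifnb1eGFP sn against eGFP sn (left) and rIFNβ against untreated control (right), filled where the adjusted p was at most 0.05, with bars at the list medians. In each list genes lay on both sides of 0, and Egr2 lay lowest at -3.16 and -3.37.

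The genes whose level ran most like each member over the 12 libraries were found by Pearson's r of log2 CPM, a description over libraries that share 4 conditions. For Csf1 they were Ttc12 (0.991), Acp3 (0.99) and Fads2 (0.99), and for Csf2rb they were Fads1 (0.991), Tbxas1 (0.991) and Pcdh7 (0.99). Csf3r ran with ENSMUSG00000062783 (0.9975, 5.10 CPM on average), Apobec1 (0.994) and Rnf19b (0.994). Csf2ra was nearest to Npdc1 (0.996), Ipo13 (0.996) and Cdkn2a (0.995), and Il3ra to Ints1 (0.996), Rplp2 (0.996) and Ppp6r1 (0.995), of which Cdkn2a (60.2% GC) and Ints1 (58.6% GC) were among the GC-rich genes. Csf2rb2 was nearest to Gp1ba (0.965), Vegfa (0.96) and Smim3 (0.948). The nearest genes of Csf1r were less alike, with Slc46a1 at 0.951 (56.9% GC) and Ptprf at 0.933 (57.9% GC).

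Of other cell types that could be in such a culture, markers of mast cells and basophils, dendritic cells and lymphocytes were low. Stromal markers were not, with Col1a2 at up to 39.8 CPM and Dcn at up to 39.7 CPM, beside Csf3r at 20.3 to 53.9 CPM. Of 10 mast cell and basophil markers 2 passed the filter, with summed levels of 1.05 to 1.67 CPM without IFNβ, 1.34 to 1.94 CPM with Ifnb1eGFP sn and 2.47 to 3.49 CPM with rIFNβ. Hdc rose by 3.97 and 3.63 in Ifnb1eGFP sn against eGFP sn and in rIFNβ against control, Gata2 fell by 2.50 and 1.68, and Mcpt4 and Tpsb2 were at 0 in all libraries. Of 10 dendritic cell markers 3 passed, with a sum of 4.31 to 5.68 CPM without and 1.54 to 2.43 CPM with IFNβ, Siglech and Ly6d having at most 1 count in a library. Of 10 lymphocyte markers 2 passed, with sums of 4.04 to 5.68 CPM without and 8.46 to 10.03 CPM with IFNβ. These sums were mostly Cd4 (3.72 to 5.03 CPM without and 8.04 to 9.96 CPM with IFNβ), while Klrb1c, the other that passed, was at 0.191 to 0.577 CPM without and 0 to 0.0297 CPM with IFNβ. Of 10 melanocyte markers 2 passed and 4 were at 0 in all libraries, and the sums of 152.6 to 167.8 CPM without and 88.1 to 102.8 CPM with IFNβ include Mitf, which macrophages also express. All 10 stromal markers passed. In Ifnb1eGFP sn against eGFP sn 6 were called, 60% of the list beside 55.1% of all genes. Cxcl12 (2.15), Dcn (1.80), Pdgfra (1.67) and Pecam1 (1.49) rose, while Acta2 (-1.69) and Col1a1 (-1.03) fell. In rIFNβ against control 4 rose and 3 fell, 70% of the list beside 55.3% of all genes. The summed levels overlapped between exposed and unexposed libraries (34.5 to 95.7 CPM in all). What part such cells have in the receptor levels was not tested.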

How the data were processed

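M2-like BMDM were profiled by bulk RNA sequencing in 12 libraries, 3 for each of 4 conditions. Per the labels, TruSeq Stranded Total RNA libraries were used. The authors aligned reads with RSEM (1.3.3) and deposited expected counts per Ensembl gene for all libraries in 1 table, without normalization. The genome is named GRCm39 and mm10 together, which are different builds. Gene positions are those of GRCm39 (GENCODE M39), which lists 56017 of 56748 genes, and no read coordinates were used. The conditions were taken from the sample titles.

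Expected counts were rounded, since 12% were not whole. In R 4.3.3, edgeR 4.0.16 was used with filterByExpr (minimum count 10), TMM factors and the quasi-likelihood test on 1 model of condition over 12 libraries, with 8 residual degrees of freedom, and a prior count of 2 on log2 scales. The SE was the log2 fold change divided by the root of F. Levels per kb used merged exons. Members and lists were chosen with earlier results of these data known. All members and ligands were named, and from each pathway list up to 4 rises and 4 falls with the smallest adjusted p in Ifnb1eGFP sn against eGFP sn, with the 3 genes nearest to each member. Some genes that this rule takes are not reported here. Stat5a, Stat5b, Cish, Spi1 and single markers were named after their values were seen. Alternatives were RLE factors, library totals, DESeq2 1.42.0, no filter, only the compared conditions, the replicate number as a block, stricter thresholds and each library left out, and, added after seeing the data, removal of a GC trend (spline of 5 degrees of freedom, 99.57% of genes) with and without the block. Replicate libraries were distinct: over 12 pairs chi-square per degree of freedom was 5.58 to 56.9.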

Additional observations from a re-analysis of the deposited data

How the results depend on the processing

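Across the alternatives, 662 of 693 recomputed values of single members kept their direction and their side of the threshold. Apart from the stricter thresholds, 4 to 6 members were called in Ifnb1eGFP sn against eGFP sn and 5 or 6 in rIFNβ against control. At the thresholds of the study's methods the members and the CSF1R signalling and STAT5 lists had 0 calls in either comparison with IFNβ, and the beta common and the Csf1r regulator lists 1 each. Leaving out 1 library at a time moved the members called in Ifnb1eGFP sn against rIFNβ between 0 and 2, and the list calls there between 0 and 4 (CSF1R signalling), 0 and 3 (beta common) and 0 and 2 (Csf1r regulators), the higher ends without Ifnb1eGFP sn replicate 2. The replicate number as a block gave 5, 5, 0 and 0 members called in the 4 comparisons, and for the sum of both beta chains -0.48 and -0.54 in the comparisons with IFNβ. Same-numbered libraries deviated together with r of 0.058 to 0.252 over 18 pairs, and 12 of 12 libraries ran best with their own number, a hint from the data, since the labels do not say what the number stands for. The block with the GC trend removed called 1 member (Csf2rb, 0.21, edgeR adjusted p = 0.0233) in Ifnb1eGFP sn against rIFNβ, and 1 gene each of the CSF1R signalling and STAT5 lists in eGFP sn against control. The cause was not tested. Signs turned only in values that were not called. Csf1 in Ifnb1eGFP sn against rIFNβ became 0.01 with RLE factors, 0.01 with DESeq2, 0.00 without a filter, 0.08 with the GC trend removed with or without the block, and between -0.06 and 0.05 with a library left out. Csf3r there became -0.01 without Ifnb1eGFP sn replicate 3 (range -0.01 to 0.06 with a library left out). In eGFP sn against control Csf2ra became 0.01 without eGFP sn replicate 3 (range -0.19 to 0.01), and Il3ra 0.02 without control replicate 3 and 0.13 without eGFP sn replicate 3 (range -0.18 to 0.13). Il3ra in rIFNβ against control became 0.02 with the GC trend removed and 0.00 with the block as well. Csf1r in rIFNβ against control was called with library totals (0.11, edgeR adjusted p = 0.0414) and without Ifnb1eGFP sn replicate 2 (0.10, edgeR adjusted p = 0.0468), besides the fits with the GC trend removed.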
